A study of Cucumis melo with 12 samples.

Results

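Leaves of the melon (Cucumis melo) varieties 162 and 13-5A were compared at 0 h of an exposure to 4 °C. The comparison uses 6 of the 12 libraries of the series, namely the 3 of 162 at 0 h and the 3 of 13-5A at 0 h, chosen by their labelled variety and time and by no measured value. The submitters describe 162 as tolerant of chilling and 13-5A as sensitive to it. The 0 h samples also carry the 4 °C treatment label. They are taken to mark the beginning of the cold, which the labels do not state. The 3 libraries of 162 and the 3 of 13-5A taken after 12 h at 4 °C served as a second, separate set of libraries. Plant age, growth temperature, leaf position and the number of plants per library are not given in the labels. Separate plants are not stated either. The p-values therefore reflect just the spread among the libraries at hand, and that spread may be technical.

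Melon is a warm-season crop, and temperatures that are low but above freezing injure its leaves through stiffened membranes and impaired photosynthesis. Chilling tolerance can rest on transcripts that cold induces, and also on differences that are already present in unchilled leaves. The comparison at 0 h measures the second kind of difference together with every other difference between the varieties. In whole leaves, more cells of a type and more RNA per cell cannot be told apart.

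Values were FPKM, fragments scaled by gene length and by the library's total of assigned fragments, for 21691 genes. Genes carry identifiers of the form MELO3C with no names, and 0 of them matched the RefSeq table at hand, which describes another assembly. No gene function is therefore given, and leaf markers could not be checked. Of the 21691 genes, 15541 averaged 1 FPKM or more in the 6 libraries and were tested with limma on log2(FPKM + 1). Calls needed an adjusted p below 0.05 and a log2 difference, 162 minus 13-5A, of 1 or more in size, which is 2-fold.

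The 6 libraries held 42092449 to 45355323 assigned reads, recovered from the FPKM, and they fell apart by variety. Over the tested genes, pairs of 162 libraries correlated at 0.949 to 0.971 and pairs of 13-5A libraries at 0.969 to 0.987, while pairs across varieties correlated at 0.879 to 0.903. The median gene differed by 0.24 to 0.36 on the log2 scale between 162 libraries, by 0.16 to 0.23 between 13-5A libraries and by 0.45 to 0.50 between varieties. The 162 libraries were the more scattered. The median standard deviation of a gene on the log2 scale was 0.24 in 162 and 0.16 in 13-5A, and it was larger in 162 for 67.9% of the genes. Replicates 1 and 2 of 162 were the least alike of the pairs within a variety.

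At 0 h, 1817 genes (11.7% of those tested) were higher and 486 (3.13%) lower in 162 relative to 13-5A, 14.8% in all. The median of all genes was itself shifted, by 0.24 on the log2 scale, and 67.6% of the tested genes had a positive difference. When each library was divided by its median-ratio size factor, which centres the typical gene, 1115 genes (7.17%) were higher and 917 (5.90%) lower, 13.1% in all, and the median difference was -0.00091. The share of calls that were higher in 162 was 78.9% on deposited FPKM and 54.9% after scaling. Size factors were 1.06, 1.14 and 1.12 in 162, and 0.897, 0.897 and 0.944 in 13-5A.

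All 1115 genes called higher after scaling were also called higher on deposited FPKM, and all 486 called lower on deposited FPKM were also called lower after scaling. These calls were made on both scales. A further 702 genes were called higher on deposited FPKM alone, with a median difference of 1.11 and a highest of 2.07. Another 431 were called lower after scaling alone, with a median difference of -0.85 on deposited FPKM. No gene was called in opposite directions under the 2 scales.

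**Figure D1:**
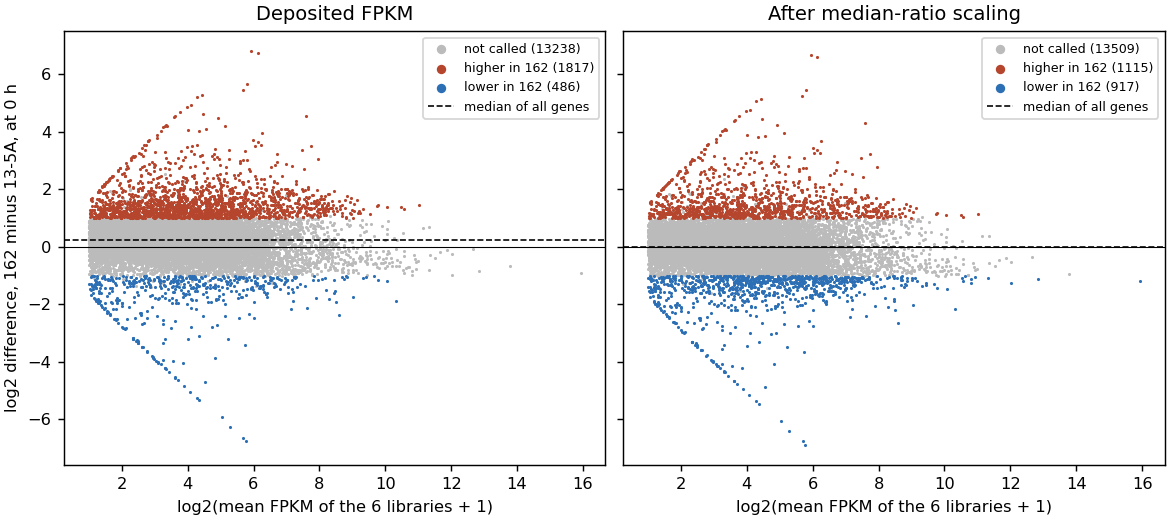
Log2 difference between 162 and 13-5A at 0 h (vertical) against mean expression of the 6 libraries (horizontal, log2 scale), for 15541 genes on deposited FPKM (left) and after median-ratio scaling (right); each point is a gene, coloured by call, and the dashed line is the median of all genes. On the left 1817 genes are higher and 486 lower with the median at 0.24; on the right 1115 are higher and 917 lower with the median close to 0. The points along the slanted outer edges are genes with almost no expression in a variety.

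A few transcripts took a larger part of the 13-5A libraries. The 10 highest genes of each library held 13.9%, 12.7% and 12.7% of all FPKM in 162, against 21.5%, 22.0% and 20.4% in 13-5A. The 100 highest held 27.7% ± 1.72 in 162 and 37.8% ± 0.745 in 13-5A (SD, n = 3 each). The number of genes at 1 FPKM or above on deposited FPKM was 15457, 15546 and 15530 in 162, and 15035, 15086 and 15063 in 13-5A. In each of these measures the varieties did not overlap, and each had p = 0.1 in a two-sided exact permutation test, the smallest that 3 against 3 libraries allow. A fixed cut at 1 FPKM depends on the scale, and genes were not counted after scaling. The number of genes at 0 FPKM was 2578 ± 114 in 162 and 2641 ± 19.9 in 13-5A (SD, n = 3 each). Here the varieties overlapped (p = 0.6 in the same permutation test).

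**Figure D2:**
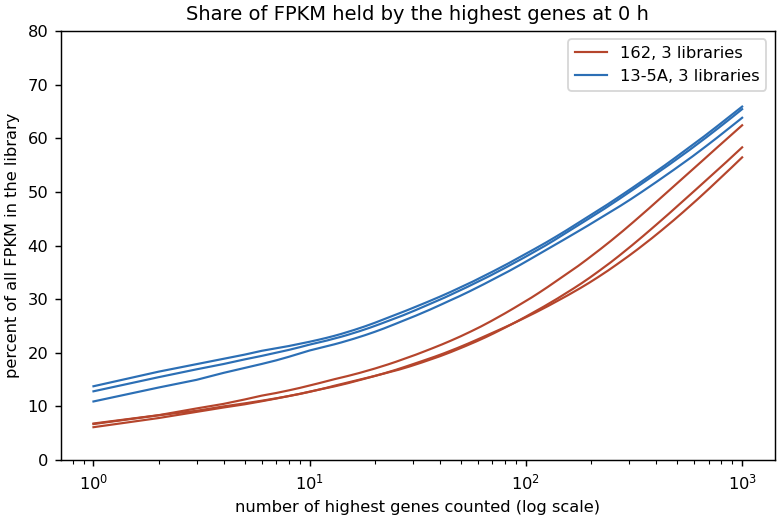
Cumulative percent of all FPKM (vertical) held by the highest genes of each 0 h library, ranked within the library (horizontal, log scale), with 3 lines per variety. At 10 genes the 162 lines lie between 12.7% and 13.9% and the 13-5A lines between 20.4% and 22.0%.

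The most abundant transcript, MELO3C012252.2, stood at 47938, 39370 and 43642 FPKM in 162, and at 83269, 90845 and 70693 FPKM in 13-5A. The varieties did not overlap. This gene alone held 6.52% ± 0.372 of all FPKM in 162 and 12.5% ± 1.45 in 13-5A (SD, n = 3 each). Its log2 difference was -0.90 (SE 0.27, limma adjusted p = 0.0317). That is less than 2-fold. After scaling it was -1.18 and the gene was called (adjusted p = 0.0341). MELO3C023879.2 came next, at 10974, 11031 and 10689 FPKM in 162, against 17154, 18013 and 16879 FPKM in 13-5A. Its difference was -0.67 (SE 0.21, limma adjusted p = 0.0366) and -0.95 after scaling, and it was called on neither scale. MELO3C023354.2 stood at 5079, 5361 and 5342 FPKM in 162, and at 9585, 9282 and 9349 FPKM in 13-5A, a difference of -0.84 (SE 0.19, limma adjusted p = 0.0114) that was called after scaling at -1.12.

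The 3 most abundant transcripts thus had lower values in every 162 library than in any 13-5A library. The tests of these genes depend on the fit, however. Over the alternatives the limma adjusted p of MELO3C012252.2 ran from 0.00436 to 0.934, that of MELO3C023879.2 from 0.00622 to 0.708 and that of MELO3C023354.2 from 0.00257 to 0.380. For MELO3C012252.2 it was above 0.05 with a pseudocount of 0.1, with no filter, with the replicate block and with any single library left out except replicate 1 of 162 (0.0644 to 0.157). For MELO3C023879.2 it was above 0.05 in the same 3 fits and with replicate 3 of 162 or any single library of 13-5A left out (0.102 to 0.161). For MELO3C023354.2 it was above 0.05 with no filter, with the block and without replicate 1 of 13-5A (0.0788). The 56 genes that averaged 1000 FPKM or more had a median difference of -0.42 on deposited FPKM, against 0.24 over all genes. Of these 56 genes, 4 were called higher and 2 lower in 162. After scaling 4 were higher and 12 lower.

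Among genes called alike on both scales with no overlap of varieties, the highest expressed that were higher in 162 were MELO3C020270.2 and MELO3C012358.2. MELO3C020270.2 stood at 3506, 2675 and 2918 FPKM in 162, against 1128, 922 and 1315 FPKM in 13-5A. Its log2 difference was 1.44 (SE 0.21, limma adjusted p = 0.00195), and 1.16 after scaling. MELO3C012358.2 stood at 2171 ± 284 FPKM in 162 and 872 ± 108 FPKM in 13-5A (SD, n = 3 each), a difference of 1.31 (SE 0.19, limma adjusted p = 0.00192). That every 162 library lay above every 13-5A library for both follows from this choice.

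The highest expressed that were lower in 162 were MELO3C024356.2 and MELO3C010754.2. MELO3C024356.2 stood at 673, 335 and 673 FPKM in 162, and at 2103, 2407 and 1537 FPKM in 13-5A (log2 difference -1.89, SE 0.31, limma adjusted p = 0.00318). MELO3C010754.2, a gene with a recovered length of 4606 bases, stood at 654 ± 97.7 FPKM in 162 and 1488 ± 185 FPKM in 13-5A (SD, n = 3 each), with a difference of -1.19 (SE 0.19, limma adjusted p = 0.00306). The lack of overlap between the varieties again follows from the choice.

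Calls were more frequent among genes at 100 FPKM or above, though on deposited FPKM not at the very top. Of 1015 genes that averaged 100 FPKM or more, 28.0% were called, against 16.4% of 4132 genes at 20 to 100 FPKM, 13.0% of 6299 at 5 to 20 FPKM and 12.7% of 4095 at 1 to 5 FPKM. The share over all tested genes was 14.8%. After scaling the shares were 29.0%, 15.1%, 10.9% and 10.5% in the same order. The 56 genes at 1000 FPKM or above, which are among the 1015, had 10.7% called on deposited FPKM and 28.6% after scaling. The log2(FPKM + 1) scale understates the differences of the lowest genes.

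Calls were also more frequent among short genes. Gene lengths were recovered from the FPKM themselves, and the quartiles of length lay at 1119, 1647 and 2302 bases. Of the genes in the shortest quartile 18.5% were higher and 5.09% lower in 162, whereas in the longest quartile 5.53% were higher and 2.03% lower. The order ran through all the quartiles, with 23.6%, 15.5%, 12.6% and 7.57% called from the shortest to the longest. After scaling these shares were 20.2%, 13.0%, 11.3% and 7.80%.

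Short genes also varied more between replicates and had fewer reads. The median standard deviation on the log2 scale was 0.30 in 162 and 0.21 in 13-5A in the shortest quartile, against 0.25 in 162 and 0.14 in 13-5A in the longest. In 162 the quartiles between them had 0.23 and 0.20, below both ends. The median gene had 334 reads per library in the shortest quartile and 1400 in the longest. Among the genes at 20 FPKM or above, 28.3%, 17.8%, 15.4% and 11.0% were called from the shortest quartile to the longest. The varieties at 12 h showed 12.1%, 7.22%, 6.50% and 4.07%, against 7.46% over all genes at that time. Spearman's rho of length with the difference at 0 h was -0.10 across 15541 genes, which share the same 6 libraries and are not independent. The part of read number and spread in this order was not tested.

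**Figure D3:**
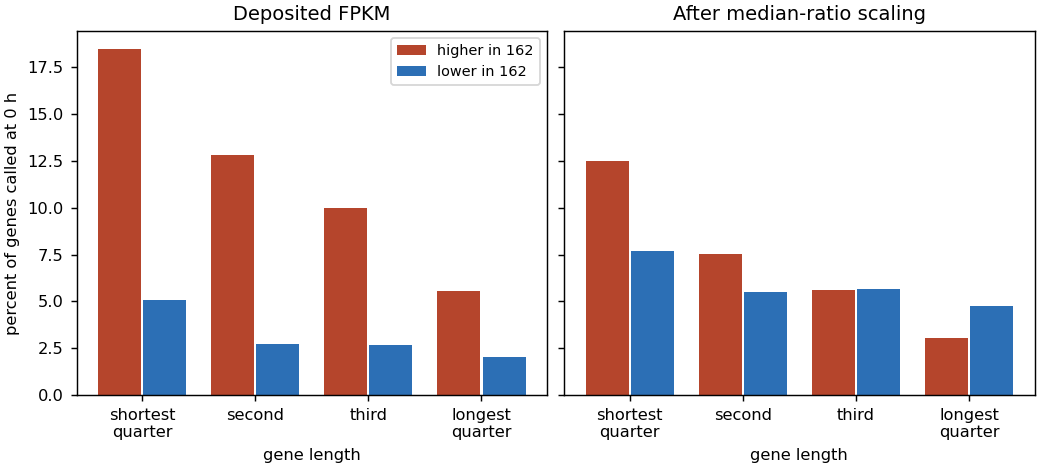
Percent of genes called higher (red) or lower (blue) in 162 than in 13-5A at 0 h (vertical), in each quartile of gene length (horizontal), on deposited FPKM (left) and after median-ratio scaling (right). Called genes fall from 18.5% higher and 5.09% lower in the shortest quartile to 5.53% and 2.03% in the longest on deposited FPKM; after scaling the longest quartile has more genes lower (4.74%) than higher (3.06%).

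Most differences were modest on the log2(FPKM + 1) scale. Of the 1817 genes higher in 162, 1547 differed by 2-fold to 4-fold, 195 by 4-fold to 8-fold, 52 by 8-fold to 16-fold and 23 by 16-fold or more. Of the 486 genes lower in 162, the numbers were 388, 50, 28 and 20 in the same order. At 16-fold or more the numbers in the 2 directions were thus close, 23 and 20, and after scaling they were 18 and 25.

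The largest differences belonged to genes that were nearly silent in a variety. MELO3C012505.2 stood at 183, 70.7 and 107 FPKM in 162 and had 0 reads in all 3 libraries of 13-5A. With 3 reads per library as the floor that a count of 0 allows (0.288 FPKM for this gene), it was at least 418-fold higher in 162. MELO3C002437.2 stood at 74.2, 233 and 105 FPKM in 162, against 0.0568, 0.0306 and 0.346 FPKM in 13-5A, where it had 15 reads in all. Its difference was 6.76 (SE 0.37, limma adjusted p = 1.9e-05). The 162 libraries spread widely among themselves in both genes, though far less than the gap to 13-5A.

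In the other direction, MELO3C032345.2 had 0 reads in the 3 libraries of 162 and stood at 106, 113 and 103 FPKM in 13-5A, which makes it at least 1146-fold lower in 162 with the floor at 0.0938 FPKM. For MELO3C031806.2 a single read was assigned in 162, and it stood at 114, 91.3 and 99.4 FPKM in 13-5A. The 13-5A libraries were close to each other in both genes.

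Among genes at 1 FPKM or above in each of the 6 libraries, called alike on both scales and with no overlap of varieties, MELO3C020268.2 had the largest difference. It stood at 377, 355 and 365 FPKM in 162, against 11.0, 13.5 and 20.3 FPKM in 13-5A (log2 difference 4.57, SE 0.21, limma adjusted p = 6.57e-06), and the mean FPKM was 24.5-fold higher in 162. MELO3C010870.2 stood at 89.7, 61.1 and 44.3 FPKM in 162, against 1.86, 4.86 and 1.43 FPKM in 13-5A (log2 difference 4.205, SE 0.36, limma adjusted p = 0.000235). These are differences of level between leaves that all expressed the gene.

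The largest such differences with lower levels in 162 were smaller. MELO3C018005.2 stood at 4.56, 1.31 and 2.01 FPKM in 162, and at 40.2, 32.7 and 84.2 FPKM in 13-5A (log2 difference -3.86, SE 0.41, limma adjusted p = 0.000565). MELO3C022436.2 stood at 7.11, 9.89 and 4.89 FPKM in 162, and at 85.4, 164 and 43.2 FPKM in 13-5A (difference -3.41, SE 0.44, limma adjusted p = 0.00124). The 13-5A libraries spread widely in both, and each lay above all 162 libraries, which the choice of genes required.

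A total of 43 genes had no read in the 3 libraries of 13-5A and at least 1 FPKM in each library of 162, and 57 genes showed the reverse. In 162 the means of the 43 genes ran from 1.31 to 120 FPKM with a median of 4.16, and in 13-5A those of the 57 genes ran from 1.28 to 107 FPKM with a median of 4.20. With a minimum of 5 FPKM in place of 1 the numbers were 14 and 24, and with 20 FPKM they were 2 and 5. Of the 43 genes 40 passed the filter on low values, and of the 57 genes 44. The median length was 582 bases in the 43 genes and 687 in the 57, against 1647 over the tested genes. A short gene gathers fewer reads at a given FPKM. The genome build to which reads were assigned is not given in the sources used here, and a count of 0 means that no read was assigned to the gene.

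The libraries taken after 12 h, which did not choose these genes, kept nearly all of them apart. For the 43 genes, every 162 library was above every 13-5A library at 12 h in all 43, and 36 of the 40 tested genes were called at 12 h (7.46% of all tested genes were). Of all tested genes, 25.1% had every 162 library above every 13-5A library at 12 h and 15.8% the reverse. For the 57 genes, the varieties did not overlap at 12 h in 56, and 42 of the 44 tested genes were called. The tested genes of both sets passed the filter only through the variety that expressed them at 0 h. Their shares of calls at 12 h therefore have no like background in all tested genes. In 46 of the 57 genes the 162 libraries again had no read at 12 h. Among the 43 genes this held in 8 for the 13-5A libraries, and in 25 without replicate 2 of 13-5A. Without that replicate the varieties did not overlap in 43 and 57 genes, against 31.2% and 19.6% of all tested genes in those directions. Called at 12 h were then 35 of the 40 and 40 of the 44 tested genes. Over all 15541 tested genes that fit called 836 higher and 478 lower in 162.

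A single library held most of the reads in 13-5A. Over the 43 genes, the 13-5A libraries at 12 h had 27, 437 and 76 reads, replicate 2 being the high one, with reads in 30 genes. Against the mean level in 162 at 12 h these were 0.533%, 6.38% and 0.874%. Over the 57 genes the 162 libraries at 12 h had 11, 21 and 5 reads, or at most 0.105% of the level in 13-5A.

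The same measure was then taken in every library, from genes that had no read in the other 2 libraries of its group and at least 1 FPKM in all 3 of the other variety. In replicate 2 of 13-5A at 12 h, 21 of 25 such genes had reads, at 5.83% of their summed level in 162. By gene the median level was 2.5% (quartiles 0.562% and 4.76%), so the sum stood above the upper quartile. In the other 11 libraries, with 4 to 65 such genes each, the summed level was 0% to 1.19%. In the 6 libraries at 0 h it was 0.0214% to 0.121%. The comparison at 0 h does not use the library that stands apart. Whether it holds RNA of 162 was not tested, so its values may not be those of 13-5A alone. Several counts at 12 h are also given without this library, though not those after scaling or by gene length.

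**Figure D4:**
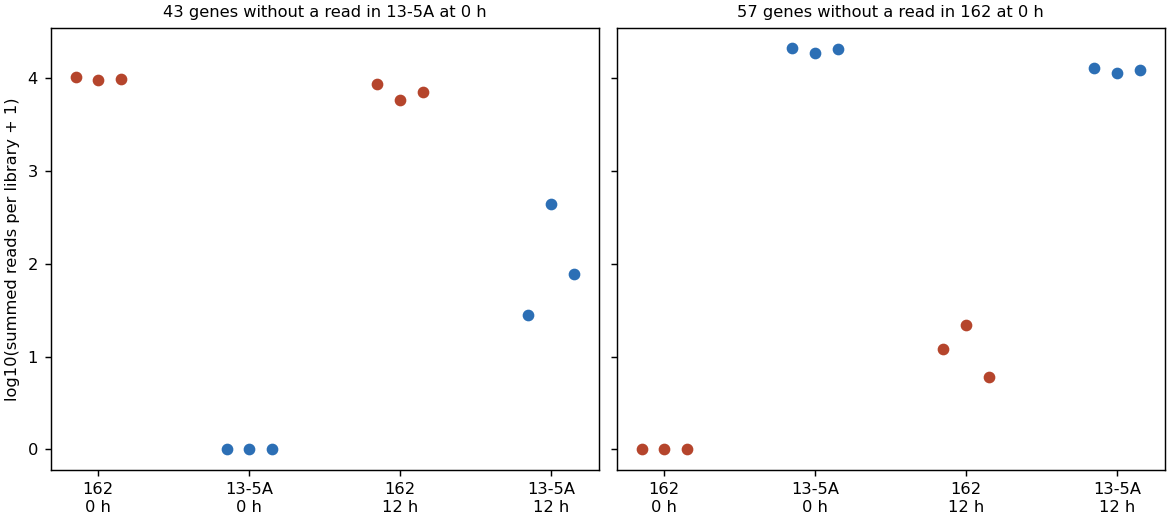
Summed reads per library on a log10(reads + 1) scale (vertical) over the 43 genes without a read in 13-5A at 0 h (left) and the 57 genes without a read in 162 at 0 h (right), by variety and time (horizontal), with a point for each library. The zeros at 0 h follow from the choice of genes; at 12 h the 13-5A libraries have 27, 437 and 76 reads on the left and the 162 libraries 11, 21 and 5 on the right.

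The whole set of differences at 0 h was then read in the 12 h libraries. At 12 h, 729 genes (4.69% of those tested) were higher and 431 (2.77%) lower in 162, 7.46% in all, and 62.8% of calls were higher. After scaling, 608 (3.91%) were higher and 511 (3.29%) lower, 7.20% in all. Of the 1817 genes higher at 0 h, 503 were called higher at 12 h too, which is 27.7% of the calls at 0 h and 69.0% of those at 12 h. Of the 486 genes lower at 0 h, 217 were called lower at 12 h too, 44.7% and 50.4% of the calls at each time. Without replicate 2 of 13-5A at 12 h, 836 genes were higher and 478 lower at 12 h, and the numbers at both times were 594 and 223. With all libraries and after scaling, the numbers at both times were 369 and 287.

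The larger the difference at 0 h, the more often it was called again. A call at 12 h also needed a log2 difference of 1 or more in size, so this order follows in part from the cut-off. Genes at 2-fold to 4-fold at 0 h had median differences at 12 h of 0.66 (higher in 162) and -0.76 (lower in 162). In these classes 92.7% and 90.2% kept the sign. Among genes higher in 162, 20.04% of those at 2-fold to 4-fold were called higher at 12 h, 63.1% of those at 4-fold to 8-fold, 90.4% of those at 8-fold to 16-fold and all 23 of those at 16-fold or more. Among genes lower in 162 the shares were 33.8%, 76.0%, and all of the 28 and 20 genes in the largest classes. Without replicate 2 of 13-5A at 12 h the order was the same among genes higher in 162, at 24.8%, 70.8%, 94.2% and all 23. Among genes lower in 162 it was 35.6%, 78.0%, 92.9% and all 20. The sign was kept in 93.5% of the genes higher and 92.2% of the genes lower at 0 h. Among those not called at 12 h it was kept in 1195 of 1309 genes higher (91.3%) and 231 of 267 genes lower (86.5%). Over all tested genes, 57.3% had a positive difference at 12 h. The median difference of the genes higher at 0 h was 0.72 at 12 h, and that of the genes lower at 0 h was -0.92, against 0.07 over all genes. The genes were chosen at 0 h, and a choice by size favours larger values at the time of choosing. Across all 15541 genes the differences at the 2 times correlated at r = 0.721 (Spearman's rho 0.627), which describes genes of 2 varieties and not independent replicates.

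The share of all FPKM held by the genes higher in 162 at 0 h was 17.98% ± 1.18 in 162 and 10.7% ± 1.29 in 13-5A at 12 h (SD, n = 3 each), in libraries that did not choose them. At 0 h, where the choice of genes sets the direction, it was 20.3% ± 1.07 in 162 and 7.18% ± 0.579 in 13-5A. The genes lower in 162 at 0 h held 1.72% ± 0.037 in 162 and 3.33% ± 0.211 in 13-5A at 12 h (SD, n = 3 each). The varieties did not overlap at 12 h in either share, with or without replicate 2 of 13-5A.

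**Figure D5:**
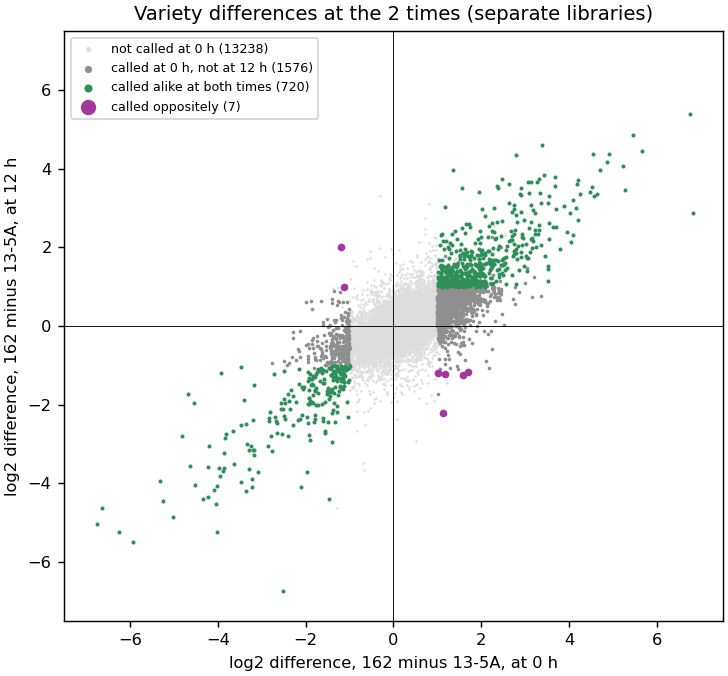
Log2 difference between 162 and 13-5A at 12 h (vertical) against that at 0 h (horizontal) for 15541 genes, each axis from its own 6 libraries, coloured by call. Genes called alike at both times number 503 higher and 217 lower in 162, and 7 genes called in opposite directions on deposited FPKM lie at the lower right (5 genes) and upper left (2 genes). After scaling, which is not drawn, these numbers were 2 and 4.

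MELO3C002437.2, described above, kept the largest difference over both times among genes higher in 162, judged by the smaller of the differences at 0 h and 12 h. It had 143, 114 and 77.8 FPKM in 162 at 12 h, against 0.153, 6.78 and 0.962 FPKM in 13-5A. The highest of the 13-5A values is in replicate 2. MELO3C015002.2 stood at 153, 56.1 and 87.8 FPKM in 162, against 1.45, 1.47 and 0.490 FPKM in 13-5A at 0 h (log2 difference 5.47, SE 0.36, limma adjusted p = 5.54e-05). At 12 h it stood at 165 ± 35.1 FPKM in 162 and 5.21 ± 3.03 FPKM in 13-5A (SD, n = 3 each).

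Among genes lower in 162, MELO3C019363.2 had 7 reads in the 3 libraries of 162 at 0 h and stood at 62.2, 68.1 and 61.4 FPKM in 13-5A. At 12 h it had 3 reads in 162 and 45.9 ± 11.2 FPKM in 13-5A (SD, n = 3). MELO3C006934.2 had 1 read in 162 at 0 h, against 76.6, 87.3 and 65.7 FPKM in 13-5A, and 3 reads in 162 at 12 h, against 38.3 ± 7.19 FPKM in 13-5A. Both genes were thus close to silent in 162 throughout.

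In 7 of the 15541 tested genes the varieties were called in opposite directions at 0 h and 12 h. Of these, 5 were higher and 2 lower in 162 at 0 h. Without replicate 2 of 13-5A at 12 h the numbers were 4 and 2. With all libraries and after scaling there were 2 higher and 4 lower at 0 h, so the majority turned. Only the 2 per direction with the largest smaller difference over both times are described. MELO3C005466.2 stood at 107, 264 and 71.6 FPKM in 162, against 39.6, 50.1 and 36.4 FPKM in 13-5A at 0 h, and at 52.3 ± 12.6 FPKM in 162 and 128 ± 39.0 FPKM in 13-5A at 12 h (SD, n = 3 each). Its difference was 1.58 at 0 h (limma adjusted p = 0.0203) and -1.26 at 12 h (adjusted p = 0.0131). The call at 0 h was lost with no filter (adjusted p = 0.0776) and without replicate 1 or replicate 3 of 13-5A at 0 h (adjusted p = 0.0691 and 0.0637). MELO3C010177.2 stood at 11.9, 5.95 and 10.5 FPKM in 162, against 2.37, 6.76 and 2.37 FPKM in 13-5A at 0 h, so the varieties overlapped. Without replicate 2 of 13-5A at 12 h it was not called at 12 h (-1.38, adjusted p = 0.0632). Its difference at 0 h of 1.19 (limma adjusted p = 0.035) was no longer called after scaling (0.95, adjusted p = 0.0912). The call at 0 h was also lost with no filter (adjusted p = 0.110) and with the replicate block (adjusted p = 0.0555). The same held without replicate 1 or 3 of 162 or replicate 1 or 3 of 13-5A at 0 h (adjusted p = 0.0943, 0.106, 0.126 and 0.109).

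The genes lower in 162 at 0 h and higher at 12 h had no such overlap. MELO3C002315.2 stood at 0.370, 0.222 and 0.587 FPKM in 162, against 2.93, 1.33 and 2.54 FPKM in 13-5A at 0 h (log2 difference -1.20, SE 0.23, limma adjusted p = 0.00606), and at 75.02, 98.8 and 170 FPKM in 162, against 20.1, 31.6 and 28.2 FPKM in 13-5A at 12 h (difference 2.00, adjusted p = 0.00508). MELO3C023503.2 stood at 17.1, 23.4 and 16.3 FPKM in 162, against 38.5, 35.2 and 53.8 FPKM in 13-5A at 0 h (difference -1.12, SE 0.21, limma adjusted p = 0.00511), and at 51.5 ± 2.84 FPKM in 162 and 25.4 ± 3.74 FPKM in 13-5A at 12 h (SD, n = 3 each). The difference of MELO3C023503.2 at 12 h was 1.00 and the gene was called, but at 0.91 after scaling and 0.92 without replicate 2 of 13-5A at 12 h it was under 2-fold. Without replicate 3 of 13-5A at 0 h its difference at 0 h was -0.94, under 2-fold. In both genes the varieties did not overlap at 0 h or at 12 h.

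A direct test of whether the variety difference at 0 h differed from that at 12 h called 495 genes (3.19%), 349 with a positive (2.25%) and 146 with a negative (0.939%) value of the difference at 0 h minus that at 12 h. After scaling, 409 genes (2.63%) were called, of which 162 genes (1.04%) had a positive and 247 (1.59%) a negative value, so the majority turned. The count of 495 depended on single libraries and ran from 149 without replicate 1 of 13-5A at 0 h to 625 without replicate 2 of 162 at 0 h. It was 328 with replicate 1 of 162 at 12 h left out and 227 with replicate 2 left out. It was 289 with replicate 3 of 13-5A at 0 h left out. For 13-5A at 12 h it was 196 with replicate 1 left out and 279 with replicate 2 left out.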

How the data were processed

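Leaf RNA was sequenced from 2 varieties at 0 h and 12 h of 4 °C, with 3 libraries per group, on an Illumina instrument after TRIzol extraction and library preparation with a VAHTS kit, per the labels' protocols. The authors deposited FPKM, in which fragments are scaled by gene length and library total; which aligner, counting program, build and annotation were used is not given in the sources used here. Table columns were matched to samples by the labels' descriptions.

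Reads, gene lengths and totals were solved for from the FPKM: 100% of values came out whole within 0.001 reads, and totals ran from 41299369 to 45355323 (read or read pair not resolved). At the median length 1 FPKM is about 72.5 reads. Floors are 3 reads per library and cover counting error only.

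Genes that averaged 1 FPKM or more at 0 h were tested with limma 3.58.1 (R 4.3.3, intensity trend, Benjamini-Hochberg adjustment) on log2(FPKM + 1), separately at 0 h and 12 h with 4 residual degrees of freedom each. The test of the difference between times used all 12 libraries. Median-ratio size factors came from genes above 0 in every library of a fit. Python 3.11.15 served for the rest. The recovery of reads and the unscaled fit at 0 h were tried on simulated data, and the other fits were not.

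The comparison, lists and limits were chosen with earlier results of these data known. Genes named are, among those called alike on both scales with no overlap of varieties, the 2 per direction with the largest difference (mean of at least 5 FPKM; also within genes at 1 FPKM or above in every library), the highest expression, or the largest smaller difference over both times. Added to these are 2 per direction called oppositely at the 2 times, and the 3 most abundant genes. Within each group, libraries differed by more than sampling noise (34.8 to 236 in chi-square per gene) and all were kept as separate. The alternatives were other scalings, pseudocounts, filters and fits, voom on recovered reads, a block for the replicate number, and the omission of each library.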

Additional observations from a re-analysis of the deposited data

Results flagged for a closer look

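The difference between 162 and 13-5A was tested directly for a change between 0 h and 12 h, with limma over all 12 libraries. Among the genes named it passed the threshold in 9, and over all tested genes in 3.19%. The genes named were chosen by their differences, calls or levels, so the 9 do not measure how common such changes are. The value given is the log2 difference at 0 h minus that at 12 h. MELO3C012505.2, with no read in 13-5A at 0 h, had 3.94 (limma adjusted p = 0.0093), where 162 stood at 120 ± 57.3 FPKM at 0 h and 11.0 ± 4.79 FPKM at 12 h (SD, n = 3 each). In 13-5A at 12 h it stood at 0.1, 2.42 and 0 FPKM, replicate 2 being the high library that also stands apart in other genes, and without that library the value was 3.37. With 13-5A near 0 at both times, the value largely restates the levels in 162. MELO3C020268.2 had 1.27 (limma adjusted p = 0.0441), and 1.07 after scaling, where it was not called (adjusted p = 0.0834). Nor was it called without replicate 2 of 13-5A at 12 h (1.31, adjusted p = 0.0771).

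MELO3C032345.2, MELO3C031806.2 and MELO3C006934.2, with at most 1 read in 162 at 0 h, had values of -1.72, -1.99 and -1.01 (limma adjusted p = 0.000442, 0.00736 and 0.0253). Without replicate 2 of 13-5A at 12 h MELO3C006934.2 had -0.88 and was not called (adjusted p = 0.0579). They had at most 4 reads in 162 at either time, so these values restate the levels in 13-5A on the log2(FPKM + 1) scale and are no test of a changed variety difference. For MELO3C032345.2 the level in 13-5A was 107 ± 5.22 FPKM at 0 h and 33.5 ± 3.84 FPKM at 12 h (SD, n = 3 each).

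The genes called in opposite directions had 2.84 (MELO3C005466.2, limma adjusted p = 0.0183), 2.41 (MELO3C010177.2, adjusted p = 0.0357), -3.21 (MELO3C002315.2, adjusted p = 0.00245) and -2.12 (MELO3C023503.2, adjusted p = 0.00205). After scaling MELO3C010177.2 was not called (2.26, adjusted p = 0.0575), nor without replicate 2 of 13-5A at 12 h (2.56, adjusted p = 0.0579). These genes were chosen with the same libraries for a difference at 0 h, and for the last 4 at both times, so their values are not independent of that choice.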

How the results depend on the processing

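Of 126 counts under alternatives, 112 stayed within 1.5 times the value reported. At 0 h, 1115 genes were higher and 917 lower after median-ratio scaling. Without the fold minimum the calls at 0 h were 5882 (4382 higher, 1500 lower), and 1482 and 591 genes were called alike at both times, by construction. A minimum mean of 5 FPKM gave 138 genes lower at both times, with fewer genes tested. With each library left out, calls at 0 h ran from 2061 to 2442 (1591 to 1910 higher, 456 to 574 lower), and after scaling from 907 to 1217 higher and 830 to 982 lower. Calls at both times ran from 364 to 594 higher and 189 to 227 lower, and calls for a difference between times from 149 to 625. With voom on the recovered reads 2334 genes were higher and 621 lower at 0 h.

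The replicate numbers gave no sign of pairing between varieties within a time, where libraries with the same number had deviations that correlated at -0.31 to 0.01. Pairing of 0 h with 12 h libraries of a variety was not tested. The replicate block gave 2338 calls at 0 h (1843 higher, 495 lower), 437 and 208 at both times and 336 for the difference between times; after scaling it gave 1130 and 907. Of 303 values of named genes that were called, 292 kept the call and 11 lost it. Of 48 values of the 3 most abundant genes, which were not called, 5 gained a call (2 by scaling, 3 without the fold minimum), and 18 had an adjusted p of 0.05 or more. No value changed sign. Losses were in MELO3C010177.2, MELO3C005466.2 and MELO3C023503.2. The fits on scaled values with a library left out, a block or another pseudocount or filter, and those at 12 h without replicate 2 of 13-5A (836 higher, 478 lower), were chosen after seeing the data.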
